A study of Mus musculus with 3 samples.

Results

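Described here are mouse bone marrow cells with RNA of the high-affinity IgE receptor or of granzyme B. They come from a library of LK cells and a library of total bone marrow (TBM). These genes were used to pick out the basophil and mast cell lineage, and part of the chosen LK cells held RNA of other lineages, as given below. A cell was a member when it held at least 2 UMIs (unique molecular identifiers, each standing for 1 captured RNA molecule) summed over Ms4a2, Gzmb and Fcer1a and none of Cd79a, Cd3e or Klrd1, which mark B, T and NK cells. Cells with under 200 genes, or with over 10% of their UMIs from mitochondrially encoded genes, were left out beforehand. The rule found 181 members among 7754 such cells: 149 of 3464 in LK (4.30%, exact binomial 95% interval 3.65% to 5.03%) and 32 of 4290 in TBM (0.746%, 0.511% to 1.05%). The members were thus chosen on measured RNA, and the levels of Ms4a2, Gzmb and Fcer1a describe the choice. The 6 fixed basophil markers (Mcpt8, Prss34, Cd200r3, Hdc, Il3ra and Gata2) were seen in members of both libraries and stood at higher CPM in TBM, where the members as a set are called basophil-like, although single cells among them differ, as described below. Of the mast cell markers, 4 of 6 were at 0 in both libraries, and Slc45a3 was seen in 56 LK members. Most members in LK had no UMI of Mcpt8 or Prss34, the basophil granule proteases, and no type name is given to them.

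The series holds 3 libraries of mouse (Mus musculus) bone marrow cells, 1 per group, labelled LK, LSK and TBM, and the LSK library is not compared here. The marrow was taken from spines, hips, tibiae and femora, a cocktail against Ter119, Ly-6C, Ly-6G, CD8a, CD11b, CD45R and CD5 enriched lineage-negative cells, and all groups passed a fluorescence-activated sorter, per the labels' protocols. LK usually stands for lineage-negative, Kit-positive progenitors. Whether the enrichment also applied to the TBM sample is not clear from the labels, and the labels leave out the mice's strain, treatment, number, sex and age. The kit was 10x Genomics' Single Cell 3' v2, which reads the 3' ends of transcripts, and sequencing was done on an Illumina NovaSeq.

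Basophils and mast cells arise in the marrow from progenitors that carry GATA2, and both arm themselves with IgE held on a surface receptor made of an alpha chain (Fcer1a), a beta chain (Ms4a2) and a gamma chain (Fcer1g) that other myeloid cells also use. When antigen links the bound IgE, the cells release histamine, proteases, lipid mediators and cytokines. Basophils complete their maturation in the marrow and fill their granules with Mcpt8 and Prss34, while mast cells leave as progenitors and gain their chymases and tryptases in tissues, where granzyme B can also be found in their granules.

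The deposited matrices held 3560 LK and 4317 TBM barcodes, where the labels state 3441 and 3984 sorted cells. The filter removed 14 LK and 6 TBM barcodes for too few genes and 96 and 23 for mitochondrial UMIs, some of them for both. Members had a median of 9042 UMIs in LK (2640 to 49715) and 3813.5 in TBM (1512 to 16302), against 14115 and 3407.5 in the other cells. A summed count of 3 UMIs over the members equals 1.96 CPM (UMIs per 1000000) in LK and 16.3 CPM in TBM, and stands as the limit for a gene at 0. LK and TBM shared 26 barcodes, 1 of them an LK member. Scrublet, a doublet caller, marked 3 LK cells (0.0866%), too few to have worked there, and 73 TBM cells (1.70%), 1 of them a member. Each group being 1 library, neither groups nor sets of cells can be tested against each other. All intervals are exact 95% intervals that cover counting error only, since cells of a library are not replicates. A gene is counted as higher or lower when its CPM differed at least 2-fold with at least 20 UMIs over both sets of cells.

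Upstream bases of the granule protease genes used to order the members (Mcpt8, Prss34) and of a surface receptor gene of basophils (Cd200r3) are shown first, because the divisions of members described below use these 3 genes. They come from RefSeq's table for GRCm38.p6, which shares its coordinates with mm10, cut where the annotated gene begins, and all 3 genes were matched by symbol. Capitals mark matches on either strand to 4 short motifs: AGATAA (a core that GATA factors bind), TTGCNNAA (C/EBP factors), TTCNNNGAA (STAT factors) and TGTGGT (RUNX factors). Mcpt8 (ENSMUSG00000022157) lies on the minus strand and the window is chr14:56085274-56085447, 174 bases. Prss34 (ENSMUSG00000056399) is on the plus strand, with the window chr17:25298144-25298393. Cd200r3 (ENSMUSG00000036172) is also on the plus strand, at chr16:44943428-44943677. Both of these windows hold 250 bases.
Mcpt8: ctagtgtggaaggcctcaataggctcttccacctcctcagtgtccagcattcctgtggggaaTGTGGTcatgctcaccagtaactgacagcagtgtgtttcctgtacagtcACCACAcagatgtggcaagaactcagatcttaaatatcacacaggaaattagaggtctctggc
Prss34: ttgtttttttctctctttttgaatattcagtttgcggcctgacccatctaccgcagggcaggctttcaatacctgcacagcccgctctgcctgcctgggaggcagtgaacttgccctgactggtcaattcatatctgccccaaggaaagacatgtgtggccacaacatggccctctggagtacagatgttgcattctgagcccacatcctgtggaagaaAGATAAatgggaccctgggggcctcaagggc
Cd200r3: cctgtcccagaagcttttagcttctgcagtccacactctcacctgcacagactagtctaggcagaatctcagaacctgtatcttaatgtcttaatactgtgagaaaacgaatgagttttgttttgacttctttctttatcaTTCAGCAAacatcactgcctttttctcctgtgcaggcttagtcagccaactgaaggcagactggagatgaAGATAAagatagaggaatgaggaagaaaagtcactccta
The Mcpt8 window held TGTGGT 2 times and none of the other motifs. Prss34 held AGATAA 1 time, and Cd200r3 held AGATAA 1 time and TTGCNNAA 1 time. Of 32851 RefSeq promoter windows of 250 bases, 9.99% held AGATAA, 9.56% TTGCNNAA, 7.02% TTCNNNGAA and 14.0% TGTGGT, and of windows of 174 bases 10.0% held TGTGGT. No marked matches overlapped. A match is a string of letters, and binding was not measured.

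The receptor genes, more than granzyme B, brought cells into the set. In LK, Ms4a2 was seen in 123 members and was the only rule gene in 56, Fcer1a was seen in 85 (17 alone), and Gzmb in 18 (5 alone), with both receptor chains in 64. The cells with Fcer1a alone varied. One held 13 UMIs of Fcer1a, 26 of Car2 (a carbonic anhydrase gene), 7 of Pf4 (a platelet chemokine gene) and 4 of Cpa3. Another held 9 of Fcer1a, 8 of Car2, 4 of Pf4 and 0 of Cpa3, and another 3 of Fcer1a with 14 of Cpa3. Fcer1a alone thus did not always come with Cpa3. In TBM, Fcer1a was seen in 31 members, Ms4a2 in 29, both in 28, and Gzmb in 2. The rule sum had a median of 5 UMIs in LK (2 to 37) and 12 in TBM (2 to 45), so many LK members stood near the threshold and few TBM members did. Just inside it, at a sum of 2, were 22 LK and 2 TBM cells, and just outside, at 1, were 108 LK and 26 TBM cells without exclusion genes. The LK cells at 2 held Cpa3, the mast cell carboxypeptidase gene, at 1231 CPM and Gata2 at 295, and the cells at 1 held 495 and 204, with Elane, a neutrophil elastase gene, at 1349 and 3875. The TBM cells at 1 held Cpa3 at 15.7 CPM and S100a8, a neutrophil gene, at 81911.

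The exclusion genes took out 2 LK and 17 TBM cells. Of the TBM cells, 9 had Klrd1, an NK cell receptor gene, and no receptor chain, and 8 were removed for Cd79a alone. Of these 8, 5 had at least 100 UMIs of Mcpt8 and Prss34 and exactly 1 UMI of Cd79a. Those 5 cells held Mcpt8 at 26530.1 CPM, Prss34 at 37279, Cd200r3 at 683, Cpa3 at 4780.0 and Ctsg, the cathepsin G gene, at 3642. Their profile lay close to that of the members with the most protease RNA, described below, and they are not counted here.

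Among members, 2 TBM cells stood apart. One held 1575 UMIs of Prg2, 95 of Prg3 and 41 of Epx, which encode eosinophil granule proteins, with a rule sum of 2, and it was the member called a doublet. The other held 2044 UMIs of S100a8 beside 167 of Mcpt8 and 166 of Prss34. All UMIs of Prg2, Prg3 and Epx in TBM members came from the first cell, and 87.9% of the S100a8 UMIs from the second. Values below that rest on them are also given for the other 30 TBM members.

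Fixed markers placed the members as follows. Of 6 mast cell markers, Mcpt4, Tpsb2, Tpsab1 and Mrgprb1 (chymase, tryptase and a receptor of mature mast cells) had 0 UMIs in both libraries. The chymase gene Cma1 had 7 UMIs in 3 LK members and 2 in 1 TBM member, and Slc45a3, a transporter gene, was seen in 56 LK members (49.7 against 5.73 CPM (log2 ratio 3.12, 2.73 to 3.49) in other LK cells). Over the whole list of mature mast cell genes, 10 of 14 were at 0 in each library. NK, T and B cell genes were low, which the exclusion of Klrd1, Cd3e and Cd79a favours. Of 14 NK and T cell genes, 9 were at 0 in TBM members. Ebf1, Pax5 and Vpreb3 were among the B cell genes at 0. Without that exclusion, Gzma and Ccl5 had log2 ratios of 5.83 and 3.21 in TBM members over other TBM cells. Genes of lineages that the rule did not exclude are described below.

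Mcpt8 and Prss34 stood far higher in TBM than in LK members. In LK, Mcpt8 stood at 219 CPM (335 UMIs in 38 cells) and Prss34 at 24.2 (37 UMIs in 9 cells, 62.2% of them in 1 cell, without which Prss34 was at 9.19 CPM). In TBM, Mcpt8 stood at 21237 CPM (3898 UMIs in 27 cells) and Prss34 at 29584 (5430 UMIs in 20 cells). The lowest, median and highest UMIs per cell were 0, 0 and 64 for Mcpt8 and 0, 0 and 23 for Prss34 in LK, and 0, 16 and 610 and 0, 16 and 855 in TBM. Both libraries held cells at 0, so the ranges overlapped, but the upper end lay far higher in TBM. After each cell was thinned to 2000 UMIs, Mcpt8 was seen in 14.1% of LK members (8.94% to 20.7%) and 85.7% of TBM members (67.3% to 96.0%, 4 shallower cells left out), and Prss34 in 2.01% and 71.4%. Without thinning the shares were 25.5% and 84.4% for Mcpt8 and 6.04% and 62.5% for Prss34. The 4 TBM cells that thinning left out held 0 or 1 UMI of Mcpt8 and 0 of Prss34. The thinned TBM shares therefore leave out protease-poor cells.

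Both protease genes were also read at a low level, taken as background, in cells that should lack them. In TBM B cells (Cd79a of at least 2 UMIs, 1411 cells, median 1981 UMIs) the thinned share was 2.50% for Mcpt8 and 2.36% for Prss34. In LK cells with at least 5 UMIs of Car1, an erythroid gene (339 cells, median 9015 UMIs), it was 0.592% for Mcpt8 and 0 of 338 for Prss34. The member shares lay above these values, except that the Prss34 share in LK (3 of 149 cells, 0.417% to 5.77%) overlapped the upper limit of 1.09%. Mcpt8 also reached beyond the members in LK: they held 11.1% of its UMIs, against 90.2% of those of Prss34. Other LK cells with at least 5 Mcpt8 UMIs numbered 111 and held Mpo, the myeloperoxidase gene, at 9608 CPM, Elane at 6111, Ctsg at 4405, Cpa3 at 378 and Csrp3, a LIM protein gene, at 1.37. In TBM the members held 73.7% of Mcpt8 and 75.7% of Prss34 UMIs.

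Summed per cell as Mcpt8 and Prss34 UMIs per 10000, the level served to order the members. In LK, 109 members (73.2%, 65.3% to 80.1%) were at 0, 31 (20.8%) above 0 and under 10, 8 (5.37%) from 10 to under 100, and 1 at 101. In TBM, 4 (12.5%, 3.51% to 29.0%) were at 0, 6 (18.75%) under 10, 6 (18.75%) from 10 to under 100, and 16 (50%, 31.9% to 68.1%) at 100 or more. The median was 0 in LK and 83.1 in TBM, where the highest cell reached 1919. These ranges are stretches of a scale and not cell types: 9 LK and 4 TBM members lay between 5 and 20, and 2 and 4 between 50 and 200. The gate and the median depth differed between the libraries, and their part in this difference was not tested. A comparison of high with low members was not made in LK, where 1 cell reached 100.

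**Figure D1:**
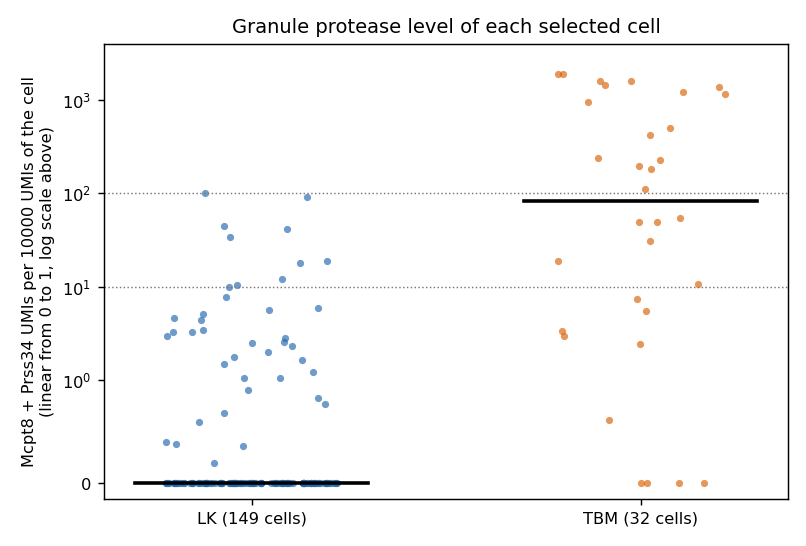
Mcpt8 and Prss34 UMIs per 10000 UMIs for each member (1 point a cell) in LK (149 cells) and TBM (32 cells), with horizontal bars at the medians and dotted lines at the bounds of 10 and 100. LK members sit mostly at 0, with 1 above 100, and 16 TBM members sit at 100 or more.

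Within LK, members carried more RNA of mast cell and basophil genes and less of monocyte and granulocyte genes than the other 3315 LK cells. Of 12399 genes with at least 20 UMIs, 7.88% were at least 2-fold higher and 5.06% lower in members, around a median log2 ratio of 0.05. The basophil list had 12 of 17 genes higher (median log2 ratio 2.24), the list shared by mast and basophil progenitors 7 of 16 (0.76), histamine and lipid mediators 3 of 9 (0.30), genes of signalling below the IgE receptor 3 of 16 (0.42) and granule matrix and degranulation 2 of 16 (0.45). None of the genes tested in these 5 lists was lower. Members were picked on genes that vary with the same programme, so these counts describe the cells and support no direction.

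Granule and mediator genes are given first. Cpa3, which encodes the carboxypeptidase of mast cell granules, was seen in 141 of 149 members with 0, 8 and 71 UMIs at the lowest, median and highest cell, and stood at 1373 against 165 CPM (log2 ratio 3.05, 2.98 to 3.12). Nearly every member held it, while 33.5% of other LK cells did. Hdc, the histidine decarboxylase that makes histamine, was at 287 against 84.3 CPM (log2 ratio 1.77, 1.62 to 1.91), and Slc18a2, which loads amines into vesicles, at 51.7 against 7.09 CPM (log2 ratio 2.87, 2.49 to 3.22). Alox5, the lipoxygenase that opens leukotriene synthesis, was at 58.2 against 2.43 CPM (log2 ratio 4.58, 4.17 to 4.99) and Rnase12, a ribonuclease family gene, at 68.7 against 2.14 CPM (log2 ratio 5.0, 4.6 to 5.41). Prss34 was at 24.2 against 0.0825 CPM (log2 ratio 8.2, 6.72 to 10.15) and Mcpt8 at 219 against 55.1 CPM (log2 ratio 1.99, 1.82 to 2.16), both resting on few cells. All of these lay above the other LK cells. The gamma chain gene Fcer1g did not: it was at 223 against 256 CPM (log2 ratio -0.2, -0.36 to -0.04).

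Among transcription factors 9 of 32 were higher and 4 lower (median 0.44). Gata2, a factor that both lineages need, was seen in 141 members (0, 4 and 13 UMIs) at 377 against 74.8 CPM (log2 ratio 2.33, 2.2 to 2.46), and Gata1 in 79 members at 92.9 against 24.2 CPM (log2 ratio 1.94, 1.68 to 2.19). The LIM-only factor Lmo4 was at 573 against 57.6 CPM (log2 ratio 3.32, 3.2 to 3.43), in 121 members (0, 5 and 21 UMIs). Ikzf2, which encodes Helios, was at 138 against 24.5 CPM (log2 ratio 2.49, 2.28 to 2.71). Irf8, the factor of monocytes and dendritic cells, was on the low side at 20.3 against 267 CPM (log2 ratio -3.72, -4.28 to -3.21), with 38.7% of its UMIs in 1 cell.

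Surface and structural genes followed. Csrp3 was seen in 85 members (0, 1 and 13 UMIs) at 240.2 against 16 CPM (log2 ratio 3.9, 3.72 to 4.09), and Scin, the actin-severing scinderin, in 32 at 75.3 against 7.85 CPM (log2 ratio 3.26, 2.95 to 3.56). Il1rl1, the interleukin 33 receptor, was at 20.9 against 1.4 CPM (log2 ratio 3.9, 3.25 to 4.53) in 25 members. Itga2b, an integrin subunit known from megakaryocytes, was at 196 against 42.8 CPM (log2 ratio 2.19, 2.01 to 2.37), Itgb7, the integrin that homes mast cell progenitors, at 50.4 against 13.7 CPM (log2 ratio 1.88, 1.52 to 2.22), and Siglecf, a lectin of eosinophils, at 104 against 15.6 CPM (log2 ratio 2.74, 2.48 to 2.98). Homing and adhesion genes as a list had 5 of 17 higher and 1 lower, with a median of 0.24, so the integrins named stood above most of their list. The adaptor gene Lat was at 77.2 against 22.3 CPM (log2 ratio 1.79, 1.5 to 2.07).

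Cytokine genes were sparse. Il6 was seen in 14 LK members at 15.1 against 0.557 CPM (log2 ratio 4.76, 3.89 to 5.61) and Csf1, the macrophage growth factor, at 13.7 against 1.34 CPM (log2 ratio 3.36, 2.57 to 4.09). Il4 had 7 UMIs in 7 members. The chemokine gene Cxcl2 was the one at a high level, 408 against 140.3 CPM (log2 ratio 1.54, 1.42 to 1.66). Cytokines and chemokines together had 5 of 13 higher and 1 lower (median 0.44). Immediate early genes, which turn on soon after stimulation, had 11 of 13 higher (median 1.45), with Egr1 at 422 against 94.2 CPM (log2 ratio 2.16, 2.04 to 2.28).

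Of other lineages, most monocyte genes were lower, as were part of the granulocyte-monocyte progenitor and erythroid genes. Itga2b and Siglecf, of the megakaryocyte and eosinophil lists, were higher, as given above. Monocyte genes had 8 of 9 lower (median -3.17), with Ly6c2, a surface antigen of monocytes, at 45.8 against 709.5 CPM (log2 ratio -3.95, -4.31 to -3.62) and F13a1, a coagulation factor subunit, at 5.24 against 88.3 CPM (log2 ratio -4.08, -5.29 to -3.1). Csf1r, the macrophage growth factor receptor, and Ccr2, a chemokine receptor, had 0 UMIs in members against 22.4 and 17.6 CPM, at least 3.51 and 3.17 lower on the log2 scale by the limit of 3 counts. Granulocyte-monocyte progenitor genes had 6 of 13 lower (median -0.72), with Elane at 1012 against 6321 CPM (log2 ratio -2.64, -2.72 to -2.57) and Ctsg at 1098 against 3304 CPM (log2 ratio -1.59, -1.66 to -1.52). Erythroid genes had 5 of 15 lower and 1 higher (median -0.74), with Car1 at 51.7 against 305 CPM (log2 ratio -2.56, -2.9 to -2.24) and Gata1 as the higher one.

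G2/M genes were higher in part in LK members, and S phase genes were not. Of 15 G2/M genes 4 were higher in members and none lower (median 0.65), and of 15 S phase genes none was higher or lower (median -0.16). Top2a, a topoisomerase of dividing cells, was at 213 against 101 CPM (log2 ratio 1.08, 0.92 to 1.24), and under 2-fold with equal weight per cell (0.95) or size factors (0.99). Ube2c, which drives mitotic exit, was at 222 against 92.9 CPM (log2 ratio 1.26, 1.1 to 1.42). Thinned to 2000 UMIs, Top2a was seen in 24.2% of members (17.5% to 31.8%) and 13.6% of other LK cells (12.5% to 14.9%), and without thinning in 53.0% of members. Mki67, another division gene, was seen in 8.72% (4.73% to 14.5%) and 5.26% (4.53% to 6.08%), so its intervals overlapped.

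**Figure D2:**
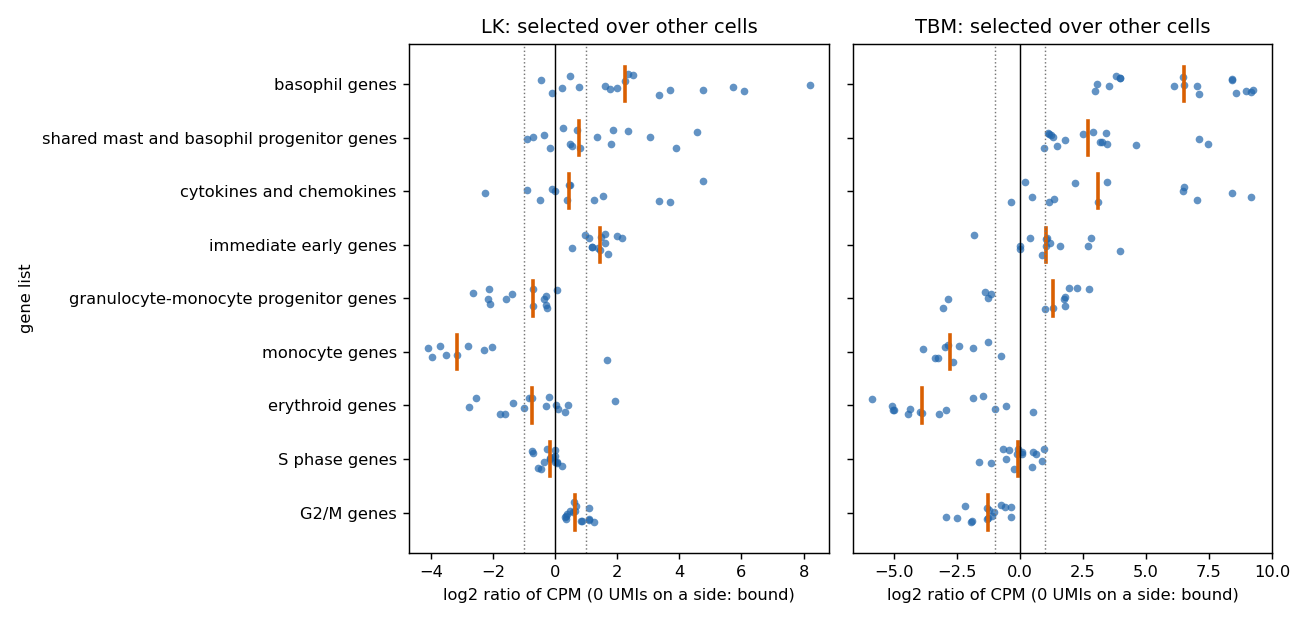
Log2 CPM ratio of members over the other cells of their library for each gene of 9 lists (1 point a gene, tested genes) in LK and in TBM, with orange bars at the list medians. The basophil list has its median at 2.24 in LK and 6.53 in TBM, and G2/M genes at 0.65 and -1.24.

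A pair of neighbouring kinds of LK cell were set beside the members. Against 106 LK cells with at least 5 UMIs of Pf4, a platelet chemokine gene, 6.5% of 7975 genes were higher and 4.49% lower in members (median -0.04). The basophil list was higher in 11 of 12 (median 2.60) and the megakaryocyte list lower in 10 of 10 (-2.74, chosen with Pf4 cells). Cpa3 was at 1373 against 17.5 CPM (log2 ratio 6.3, 5.7 to 6.97), Lmo4 at 573 against 16.7 CPM (log2 ratio 5.1, 4.48 to 5.8) and Hdc at 287 against 13.5 CPM (log2 ratio 4.41, 3.71 to 5.2). Rab27b, a GTPase of secretory granules, was lower at 15.1 against 179 CPM (log2 ratio -3.57, -4.26 to -2.95).

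Against 1220 LK cells with at least 50 UMIs of Elane, 14.6% of 11184 genes were higher and 5.93% lower in members (median 0.16). Csrp3 was at 240.2 against 1.44 CPM (log2 ratio 7.39, 6.89 to 7.92), Gata1 at 92.9 against 1.88 CPM (log2 ratio 5.63, 5.15 to 6.14), Gata2 at 377 against 14.6 CPM (log2 ratio 4.69, 4.5 to 4.88) and Cpa3 at 1373 against 115 CPM (log2 ratio 3.58, 3.5 to 3.66). Apoe, the apolipoprotein E gene, was seen in 145 members (0, 29 and 88 UMIs) and stood at 2909 against 84.6 CPM (log2 ratio 5.1, 5.03 to 5.18). Erythroid genes were higher in 8 of 13 (median 1.81) and megakaryocyte genes in 6 of 7 (2.54), so members held more of both than the Elane-rich cells did. Granulocyte-monocyte progenitor genes were lower in 8 of 12 (-1.57), which the choice of Elane cells favours.

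LK members with a protease UMI differed from those without. The 40 members with Mcpt8 or Prss34 were deeper (median 12077 UMIs) than the 109 without (8034), and a UMI is seen more often in a deep cell. Of 6440 genes, 2.59% were higher and 4.32% lower in cells with a protease UMI (median -0.03). Granulocyte-monocyte progenitor genes were higher in 7 of 11 (median 1.49), granule proteases in 5 of 5 (2.65), and erythroid genes lower in 5 of 6 (-2.04). S phase and G2/M genes had 0 of 15 on either side. Top2a was at 231 against 202 CPM (log2 ratio 0.19, -0.14 to 0.52), and its share of cells was 42.5% (27.0% to 59.1%) with and 17.4% (10.8% to 25.9%) without a protease UMI after thinning to 2000 UMIs, and 70% and 46.8% unthinned. The thinned shares thus parted while the CPM did not differ beyond counting error.

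Elane was at 2404 against 172 CPM (log2 ratio 3.8, 3.57 to 4.05), with at least 10 UMIs in 14 of 40 cells and 1 of 109, and 23.4% of the UMIs of the first group in 1 cell. Ctsg was at 2393 against 317 CPM (log2 ratio 2.92, 2.74 to 3.1), with at least 10 UMIs in 31 of 40 and 7 of 109, and Mpo at 5939 against 1218 CPM (log2 ratio 2.29, 2.19 to 2.38), with 37 of 40 and 30 of 109. Ctsg and Mpo thus stood in the same LK cells as Mcpt8 or Prss34. Elane did so less: the cells with the most Elane, at 324, 279 and 231 UMIs, held 6, 1 and 1 of Mcpt8. Those cells were deep, at 30368, 26455 and 27519 UMIs. The cell with the most Mcpt8, 64 UMIs, held 16 of Elane and 79 of Ctsg. Cebpe, a factor of granule formation, was at 153 against 2.1 CPM (log2 ratio 6.19, 4.29 to 9.26) (33.0% of UMIs in 1 cell), and Clec12a, a myeloid lectin, at 176 against 21 CPM (log2 ratio 3.07, 2.36 to 3.84). When the split was made on cells thinned to 2000 UMIs, the log2 ratios of Elane, Ctsg and Mpo were 1.03, 1.61 and 1.17, and that of Cebpe was 0.64. Cpa3 was at 2023 against 981 CPM (log2 ratio 1.04, 0.92 to 1.17), reaching 10 UMIs in 33 of 40 and 34 of 109 cells, and Hdc at 393 against 222 CPM (log2 ratio 0.82, 0.54 to 1.1). For comparison, the Car1 cells of LK held Elane at 359 CPM, Ctsg at 181 and Mpo at 479. How much of this was free RNA was not tested. Elane in members without a protease UMI (172 CPM) lay below its level in the Car1 cells.

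On the other side, cells without a protease UMI held more RNA of erythroid genes, while megakaryocyte genes had 0 of 6 on either side. Car2, a carbonic anhydrase gene, was at 162 against 569.7 CPM (log2 ratio -1.82, -2.15 to -1.5), and Klf1, the erythroid factor, at 6.96 against 68.2 CPM (log2 ratio -3.29, -5.21 to -1.87). Car1 was at 3.48 against 80.8 CPM (log2 ratio -4.54, -7.61 to -2.64), with 40.3% of the UMIs of the second group in 1 cell. Gata2 was at 294 against 427 CPM (log2 ratio -0.54, -0.81 to -0.28), Gata1 at 59.1 against 113 CPM (log2 ratio -0.94, -1.54 to -0.37) and Apoe at 1671 against 3656 CPM (log2 ratio -1.13, -1.23 to -1.03). Lat was at 38.3 against 101 CPM (log2 ratio -1.4, -2.14 to -0.72), Scin at 33 against 101 CPM (log2 ratio -1.61, -2.4 to -0.89) and Egr1 at 243 against 529.8 CPM (log2 ratio -1.12, -1.4 to -0.85). These last 3 were under 2-fold in the thinned split, at -0.62, -0.16 and -0.57. The summed erythroid list per cell ran from 0 to 1264 CPM (median 256) in cells with a protease UMI and from 0 to 5997 (median 781) in cells without. Of its 15 genes, Hba-a1, Hba-a2, Hbb-bt, Rhd and Ermap were at 0 in the first group and Hba-a1 and Rhd in the second. The summed granulocyte-monocyte progenitor list ran from 3409 to 41033 CPM (median 19189) and from 1931 to 23407 (6736), with Fcnb at 0 in both. Their part in the split was not tested.

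LK members with granzyme B formed a small and distinct range. They numbered 18 of 149, were shallower (median 5148.5 against 9496 UMIs), and 1 cell of 49715 UMIs held a large part of their 156303. Of 6442 genes, 5.7% were higher and 10.8% lower than in the 131 without Gzmb (median -0.02), and with equal weight per cell 666 genes instead of 367 were higher. Scin was seen in 15 of 18 and 17 of 131 cells, at 550.2 against 21.1 CPM (log2 ratio 4.7, 4.08 to 5.36). Itgb7 was seen in 14 of 18 and 31 of 131, at 237 against 29.2 CPM (log2 ratio 3.02, 2.34 to 3.7). Cma1 was seen in 3 of 18 and 0 of 131 cells, with 7 UMIs in all. Scinderin, the gut-homing integrin and the mast cell chymase thus stood with granzyme B, while Mcpt4, Tpsb2 and Tpsab1 were at 0.

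Kit, the stem cell factor receptor, was at 96 against 42.3 CPM (log2 ratio 1.18, 0.26 to 2.02), in 10 of 18 and 44 of 131 cells. Fcer1g was at 633 against 176 CPM (log2 ratio 1.84, 1.49 to 2.19), and the adaptor gene Lat2 at 313 against 93.3 CPM (log2 ratio 1.75, 1.24 to 2.23). Id2, an inhibitor of helix-loop-helix factors, was at 134 against 3.64 CPM (log2 ratio 5.2, 3.76 to 6.97), in 9 and 5 cells. The chemokine gene Ccl3 was at 384 against 56.1 CPM (log2 ratio 2.77, 2.26 to 3.28), with 46.7% of its UMIs in 1 cell. Cpa3 differed little, at 1753 against 1329.6 CPM (log2 ratio 0.4, 0.21 to 0.58). Prss34 had 0 UMIs in the 18 cells, Cd200r3 also 0, and Mcpt8 was seen in 4, with 84.1% of its UMIs in 1 cell. That cell, at a protease level of 90.5, held 37 UMIs of Mcpt8, 26 of Gzmb, 6 of Scin and 4 of Cma1. Another, at 18.9, held 5 of Mcpt8, 1 of Gzmb, 3 of Scin and 2 of Cma1. The upper LK levels thus include cells with the mast cell chymase gene. Ms4a2 was seen in 9 of 18 and 114 of 131, a difference the rule allows because Gzmb alone can admit a cell.

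Most G2/M genes were lower in the granzyme B cells. Of 15 G2/M genes, 13 were lower (median -1.84), and of 15 S phase genes none passed 2-fold (median -0.25). Ube2c was at 25.6 against 245 CPM (log2 ratio -3.26, -5.14 to -1.89) and Mki67 at 6.4 against 56.9 CPM (log2 ratio -3.15, -8.47 to -0.63) (1 UMI against 78, and at -0.64 with at least 2 Gzmb UMIs as the bound). Top2a was seen in 3 of 18 and 76 of 131 cells, and after thinning to 2000 UMIs in 5.56% (0.141% to 27.3%) and 26.7% (19.4% to 35.2%), so the intervals overlapped. Summed over the list, a cell held from 0 to 1167 CPM (median 0) with Gzmb and from 0 to 6606 (median 382) without. NK and T cell genes were not raised beside Gzmb: their sum had a median of 919 and 734 CPM per cell, and Gzma, Ncr1, Cd3d and Klrb1c were at 0 in the 18 cells.

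**Figure D3:**
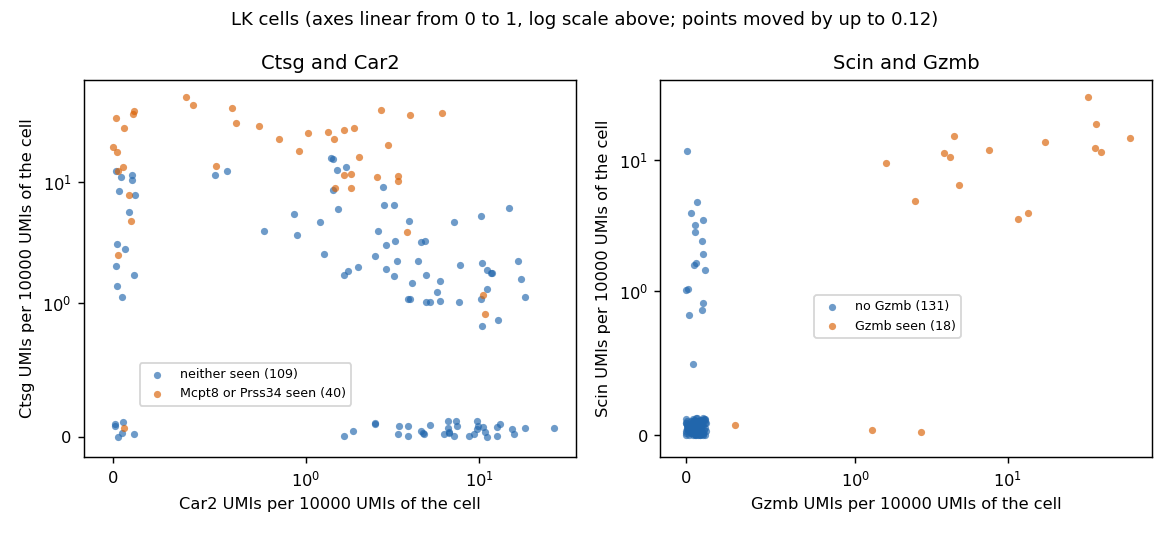
UMIs per 10000 of Ctsg against Car2 for each LK member, coloured by whether Mcpt8 or Prss34 was seen (40 cells) or not (109), and UMIs per 10000 of Scin against Gzmb, with 18 cells that hold Gzmb and 131 that do not (points moved by up to 0.12 to part overlaps). Cells with a protease UMI reach high Ctsg, and Scin of at least 2 UMIs is seen in 15 of 18 Gzmb cells and 7 of 131 others.

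In TBM, members were set against the other 4258 cells. Of 11585 genes, 19.1% were higher by 2-fold or more, and 8.06% lower, around a median of 0.03. TBM members hold fewer UMIs in all than LK members, and a sparse gene passes 2-fold more easily, so these shares are not set against those of LK. Of the genes past 2-fold, 70.4% were higher with totals as the scale and 48.8% with size factors, which lower every ratio by 0.38, so ratios near 1 are read against that shift. In the other TBM cells the 11 neutrophil genes alone summed to 169284 CPM. The basophil list was higher in 17 of 17 (median 6.53), the shared mast and basophil list in 15 of 16 (2.71), cytokines and chemokines in 10 of 13 (3.11) and histamine and lipid mediators in 7 of 11 (1.47).

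Effector genes of basophils stood far above the other TBM cells. Cd200r3, an activating receptor of basophils, was seen in 26 of 32 (0, 4 and 12 UMIs) at 828 against 1.66 CPM (log2 ratio 8.97, 8.44 to 9.53). Hdc was seen in all 32 (2, 7 and 25 UMIs) at 1357 against 96.5 CPM (log2 ratio 3.81, 3.62 to 4.0). Prss34 was at 29584 against 78 CPM (log2 ratio 8.57, 8.49 to 8.65) and Mcpt8 at 21237 against 62.3 CPM (log2 ratio 8.41, 8.33 to 8.5). Cyp11a1, an enzyme of steroid synthesis, was at 354 against 0.582 CPM (log2 ratio 9.25, 8.38 to 10.23), and Alox15, a lipoxygenase, at 223 against 0.448 CPM (log2 ratio 8.96, 7.94 to 10.13). These are genes that the other TBM cells nearly lacked, so their ratios were among the highest.

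Chemokine genes followed. Ccl3 was seen in 25 members (0, 14.5 and 37 UMIs) at 2517 against 28.2 CPM (log2 ratio 6.48, 6.31 to 6.66), and Ccl4, a related chemokine gene, in 26 at 1242 against 13.5 CPM (log2 ratio 6.53, 6.27 to 6.78). Csf1 was at 142 against 1.07 CPM (log2 ratio 7.04, 6.19 to 7.91). Il4, the cytokine basophils are known for, had 19 UMIs in 15 members, and Il6 28 UMIs in 13. Il4 and Il6 were therefore present in part of the cells at 1 to few UMIs each.

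Of factors and receptors, Gata2 was seen in all 32 TBM members (1, 5 and 13 UMIs) at 909.9 against 6.54 CPM (log2 ratio 7.12, 6.79 to 7.45), and Cebpa, the myeloid factor, at 518 against 32.7 CPM (log2 ratio 3.99, 3.66 to 4.3). Csrp3 was at 904 against 3.63 CPM (log2 ratio 7.96, 7.57 to 8.36), Cpa3 at 2893 against 16.6 CPM (log2 ratio 7.45, 7.25 to 7.64) and Itga2b at 294 against 4.88 CPM (log2 ratio 5.91, 5.42 to 6.4). Il3ra, the interleukin 3 receptor alpha chain, was at 202 against 23.9 CPM (log2 ratio 3.07, 2.55 to 3.55). Cd63, a tetraspanin of granule membranes, was at 3024 against 279.6 CPM (log2 ratio 3.44, 3.31 to 3.56), and Fcer1g at 1972 against 1289 CPM (log2 ratio 0.61, 0.46 to 0.76). Kit had 3 UMIs in 3 cells. Csrp3, Cpa3, Gata2 and Itga2b were thus higher than the other cells in both libraries, while Ctsg was higher in TBM (1803 against 374 CPM) and lower in LK.

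Most genes of the B cell, erythroid, monocyte and neutrophil lists were lower. These were B cell genes in 8 of 9 (median -4.22), erythroid genes in 12 of 15 (-3.89), monocyte genes in 9 of 10 (-2.75) and neutrophil genes in 10 of 11 (-2.48). S100a8 was the neutrophil exception through the 1 cell named above. Genes of further lineages were in part higher: Ctsg (log2 ratio 2.27), Itga2b and Alox15, of the granulocyte-monocyte progenitor, megakaryocyte and eosinophil lists. Prg2 had 92.3% of its TBM UMIs in members, all in the Prg2-rich cell. Those lists as a whole are not reported here. Hba-a1, an alpha globin, was at 452 against 26330 CPM and Cd74, the invariant chain, at 70.8 against 2808 CPM. The exclusion of Cd79a favours the low B cell genes. G2/M genes were lower in 11 of 15 (median -1.24) and S phase genes in 2 of 15 (-0.09). Thinned, Top2a was seen in 10.7% of TBM members (2.27% to 28.2%) and 18.7% of other TBM cells (17.3% to 20.2%), with overlapping intervals, and without thinning in 31.25% of members.

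Leaving the Prg2 and S100a8 cells aside, 30 TBM members fell into 3 ranges by Cd200r3 and the protease level: 5 without Cd200r3, 14 with Cd200r3 and a level of at least 100, and 11 with Cd200r3 and a lower level. This division was drawn after the values were seen, so it describes the cells. The 5 cells were deep (median 12447 UMIs) beside 4370 and 2414 in the others. Cd200r3 is at 0 in them by the division itself, and they were the deepest range.

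The 5 cells without Cd200r3 varied. Their Mcpt8 UMIs were 0, 0, 3, 22 and 229, and their Prss34 UMIs 0, 1, 0, 12 and 21. Their Ctsg UMIs, in the same order, were 0, 19, 18, 15 and 69, and their Mpo UMIs 0, 111, 19, 17 and 41. The first cell alone held granzyme B, 35 UMIs, together with 21 of Scin, 24 of Cpa3, 3 of Itgb7 and 2 of Cma1. Scin, Itgb7 and Cma1 also accompanied Gzmb in LK, where Cpa3 differed little between members with and without Gzmb. The other 4 all held Ctsg and Mpo. Over the 5, Lmo4 stood at 1524 CPM, Cpa3 at 2417, Csrp3 at 736 and Gata2 at 543. Ccl3 was at 0, and Ccl6 had 1 UMI.

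With Cd200r3, effector genes were higher. Of 1110 genes, 17.5% were higher and 16.6% lower in the 25 cells with Cd200r3 than in the 5 without (median -0.07), and the basophil list was higher in 13 of 14 (median 2.95), cytokines and chemokines in 7 of 8 (3.13) and immediate early genes in 9 of 10 (1.88). The CC chemokine gene Ccl6 was at 3676 against 17.5 CPM (log2 ratio 7.71, 5.23 to 13.02), and Ccl3 at 4368 CPM against 0 UMIs, at least 6.38 higher on the log2 scale. Fcer1g was at 3065 against 368 CPM (log2 ratio 3.06, 2.42 to 3.77) and its signalling relative Tyrobp at 4888 against 631 CPM (log2 ratio 2.95, 2.46 to 3.49). Lower were Lmo4, at 244 against 1524 CPM (log2 ratio -2.64, -3.36 to -1.97), Mpo, at 723 against 3293 CPM (log2 ratio -2.19, -2.6 to -1.79) (59.0% of the UMIs of the 5 cells in 1 of them), the chaperone gene Calr, at 591 against 1752 CPM (log2 ratio -1.57, -2.06 to -1.09), and the nucleolar protein gene Npm1, at 418 against 1401 CPM (log2 ratio -1.75, -2.33 to -1.19). Splitting on cells thinned to 1000 UMIs left Mcpt8 at 0.44 and Prss34 at 0.97 on the log2 scale, under 2-fold. Without the exclusion genes, which lets NK cells in, Ccl4 (0.48), Lmo4 (-0.89), Mpo (-0.32) and Calr (-0.30) were under 2-fold.

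The 25 cells with Cd200r3 differed by protease level, and not in the sense that all basophil genes climbed together. Of 684 genes, 15.4% were higher and 11.5% lower in the 14 cells at 100 or more than in the 11 below (median -0.09). The basophil list, without the genes of the split, was lower in 7 of 12 and higher in none (median -1.15), cytokines and chemokines were lower in 6 of 8 (-1.68) and immediate early genes in 6 of 9 (-1.80), while granulocyte-monocyte progenitor genes were higher in 4 of 8 and lower in 1 (1.55).

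Protease-rich cells held progenitor-type granule genes. Ctsg had 198 UMIs in 10 of the 14 cells (2734 CPM) and 0 in the 11 others, at least 4.56 higher on the log2 scale. Ms4a3, a membrane protein gene of granulocyte progenitors, was at 815 CPM against 0 UMIs, at least 2.81 higher, and Mpo at 967 against 38.8 CPM (log2 ratio 4.64, 2.12 to 9.96). Cpa3 was at 4737 against 1318 CPM (log2 ratio 1.85, 1.33 to 2.4). H2afz and Hmgb2, chromatin genes abundant in dividing cells, were at 2196 against 543 CPM (log2 ratio 2.02, 1.23 to 2.92) and 2224 against 659 CPM (log2 ratio 1.75, 1.03 to 2.57). Cathepsin G and MS4A3 RNA thus stood in the range of the higher Mcpt8 and Prss34 level. Mpo was uneven within it. Cells at levels of 958, 1151, 1392 and 1919 held 11, 19, 16 and 19 Mpo UMIs. Cells at 1436, 1585, 1617 and 1896 held 1, 0, 0 and 1.

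As a share of all UMIs, chemokines stood with the lower protease level. The 14 cells were deeper (median 4370 against 2414 UMIs, those of Mcpt8 and Prss34 included). A lower CPM in them is therefore not always a lower count per cell. Ccl6 was seen in 7 of 14 and 10 of 11 cells (0, 0.5 and 29 against 0, 19 and 75 UMIs), at 1132 against 10816 CPM (log2 ratio -3.26, -3.63 to -2.9). Ccl3 was seen in 13 of 14 and all 11 (0, 16 and 37 against 5, 16 and 33 UMIs), at 3176 against 7714 CPM (log2 ratio -1.28, -1.56 to -1.0), and Ccl4 was at 1119 against 4729 CPM (log2 ratio -2.08, -2.5 to -1.66). With equal weight per cell Ccl3 was at -0.94, under 2-fold, and its median was 16 UMIs per cell in both ranges. The ranges of single cells overlapped for both chemokines. Ifitm1, an interferon-induced membrane protein gene, was at 2762 against 10854 CPM (log2 ratio -1.97, -2.24 to -1.71), and Cd7, a surface antigen, at 345 against 2287 CPM (log2 ratio -2.73, -3.46 to -2.03). The stimulus genes Fos and Junb were at 704 against 2675 CPM (log2 ratio -1.93, -2.48 to -1.38) and 552 against 2287 CPM (log2 ratio -2.05, -2.67 to -1.45). Cd200r3 itself was at 1215 against 2171 CPM, Gata2 at 1132 against 1977 CPM and Fcer1g at 2969 against 3334 CPM. The 11 cells still held Mcpt8 at 1434 CPM (in 8 cells) and Prss34 at 426 (in 2), against 19.9 and 11 in B cells. B cells held Ctsg at 86.2, Ccl6 at 88.4 and Ccl3 at 3.03 CPM.

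Depth moved with this split: the 11 cells had 1512 to 2964 UMIs, the 14 had 2686 to 8834. Summed markers of other cells overlapped between the ranges. The summed neutrophil list had a median of 7275 CPM per cell in the 11 (4951 to 8435) and 6203 in the 14 (3827 to 7475), against 4049 in the 5 without Cd200r3 (3696 to 5842) and 5838 in B cells. Mmp9 was at 0 in the 14, Mmp8 and Ly6g in the 11, and Mmp8 and Cxcr2 in the 5. The summed erythroid list had medians of 3728, 3055 and 1767 CPM, with Klf1, Car1, Epor, Rhd and Ermap at 0 in both Cd200r3 ranges. Their part in the differences was not tested.

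**Figure D4:**
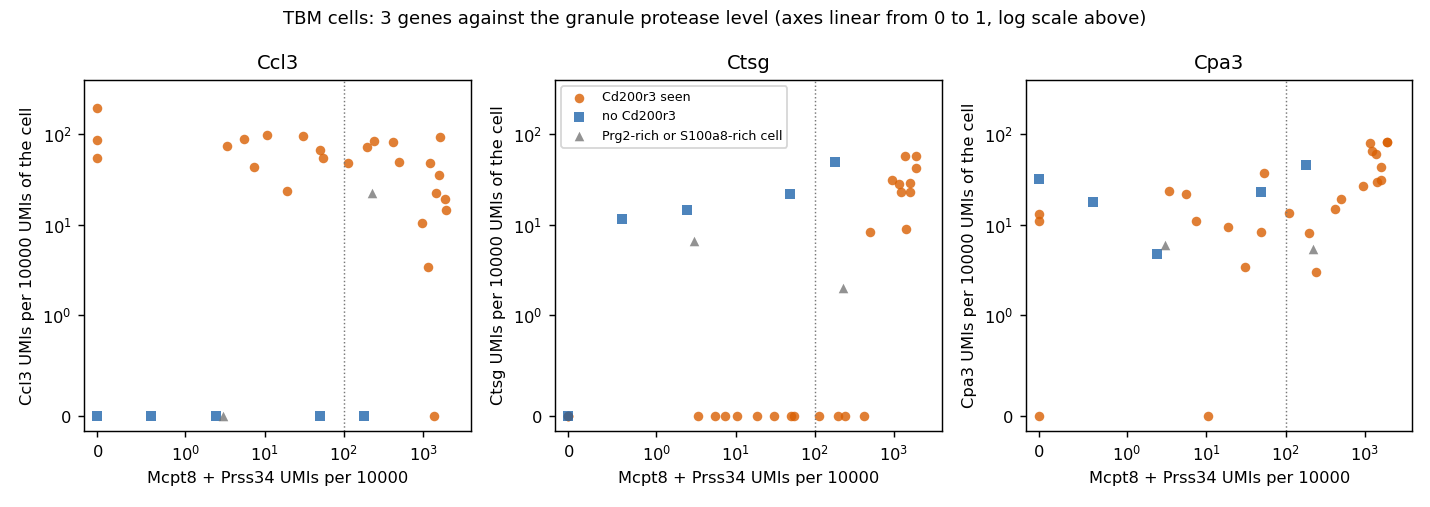
UMIs per 10000 of Ccl3, Ctsg and Cpa3 against the Mcpt8 and Prss34 level for each TBM member, with orange circles for the 25 cells with Cd200r3, blue squares for the 5 without and grey triangles for the 2 cells set apart. Ctsg is 0 in the 11 circles below a level of 100 and seen in 10 of the 14 above.

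The cut by level alone mixed these ranges. Between the 16 TBM members at 100 or more and the 10 under 10, 8.15% of 1117 genes were higher and 9.4% lower (median -0.06), and the basophil list had 2 higher and 1 lower of 13. Cpa3 was at 4096 against 1364 CPM (log2 ratio 1.59, 1.25 to 1.94) and Ctsg at 2672 against 738 CPM (log2 ratio 1.86, 1.4 to 2.34). Mpo was on the lower side, at 1098 against 2456 CPM (log2 ratio -1.16, -1.53 to -0.8), with 72.5% of the UMIs of the low cells in 1 of them, and its ratio turned to 0.33 when the exclusion genes were not applied. The low cells included both chemokine-rich cells with Cd200r3 and cells without it. Neutrophil genes were higher in 6 of 7, and in 1 of 6 without the Prg2 and S100a8 cells, where 7.58% of 963 genes were higher and 8.41% lower.

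Set side by side, LK and TBM members differed in most effector genes. Of 6811 genes, 22.3% were higher and 8.78% lower in LK members (median 0.31), and without the 2 TBM cells 21.2% and 9.49% of 6763. Of the genes past 2-fold, 71.7% were higher in LK with totals as the scale and 50.7% with size factors, which lower every ratio by 0.31, so the excess of genes on the LK side depends on the scale. All 17 basophil genes tested were lower in LK (median -4.17, and -4.41 without the 2 cells), as were 8 of 11 cytokines and chemokines and 4 of 7 histamine and lipid mediators. The gates of the libraries differ, Kit being the usual gate of LK. Free RNA differs too: B cells of TBM held S100a8 at 13467 CPM and Hbb-bs at 7142, and LK members held S100a8 at 1.96. The part of either in the differences was not tested.

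Ccl6 showed a wide gap, with 1 UMI in LK members and 373 in TBM members (0.654 against 2032 CPM (log2 ratio -11.6, -16.91 to -9.11)). Prss34 was at 24.2 against 29584 CPM (log2 ratio -10.26, -10.76 to -9.79) and Mcpt8 at 219 against 21237 CPM (log2 ratio -6.6, -6.76 to -6.44). Cd200r3 was at 12.4 against 828 CPM (log2 ratio -6.06, -6.83 to -5.37), Ccl3 at 89.7 against 2517 CPM (log2 ratio -4.81, -5.1 to -4.53) and Fcer1g at 223 against 1972 CPM (log2 ratio -3.14, -3.36 to -2.93). The gap was narrower for Hdc, at 287 against 1357 CPM (log2 ratio -2.24, -2.47 to -2.01), and the factor Cebpb at 27.5 against 278 CPM (log2 ratio -3.34, -3.96 to -2.72). Of progenitor genes held in common, Cpa3 was at 1373 against 2893 CPM, Gata2 at 377 against 909.9 CPM, Csrp3 at 240.2 against 904 CPM and Lmo4 at 573 against 643 CPM. The receptor chains that chose the cells stood at 194 and 1950.5 CPM for Fcer1a and 355 and 872 for Ms4a2.

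Stem and multipotent progenitor genes were higher in LK members in 5 of 6 tested (median 1.18), and in 3 of 6 without the 2 TBM cells. Cd34 was seen in 114 of 149 LK and 6 of 32 TBM members, at 206 against 38.1 CPM (log2 ratio 2.43, 1.37 to 3.76). Outside that list, Ctla2a, a protease inhibitor gene, was at 484 against 32.7 CPM (log2 ratio 3.89, 2.76 to 5.34). Kit was at 47.8 against 16.3 CPM (log2 ratio 1.55, -0.06 to 3.86), an interval that includes 0. Cxcl2 was at 408 against 16.3 CPM (log2 ratio 4.64, 3.09 to 6.92) and Elane at 1012 against 179.8 CPM (log2 ratio 2.49, 2.0 to 3.04). S phase genes were higher in 6 of 15 (median 0.75), G2/M genes in 5 of 15 (0.83) and immediate early genes in 5 of 12 (0.90), medians that exceed the shift of 0.31 by less than 1.

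**Figure D5:**
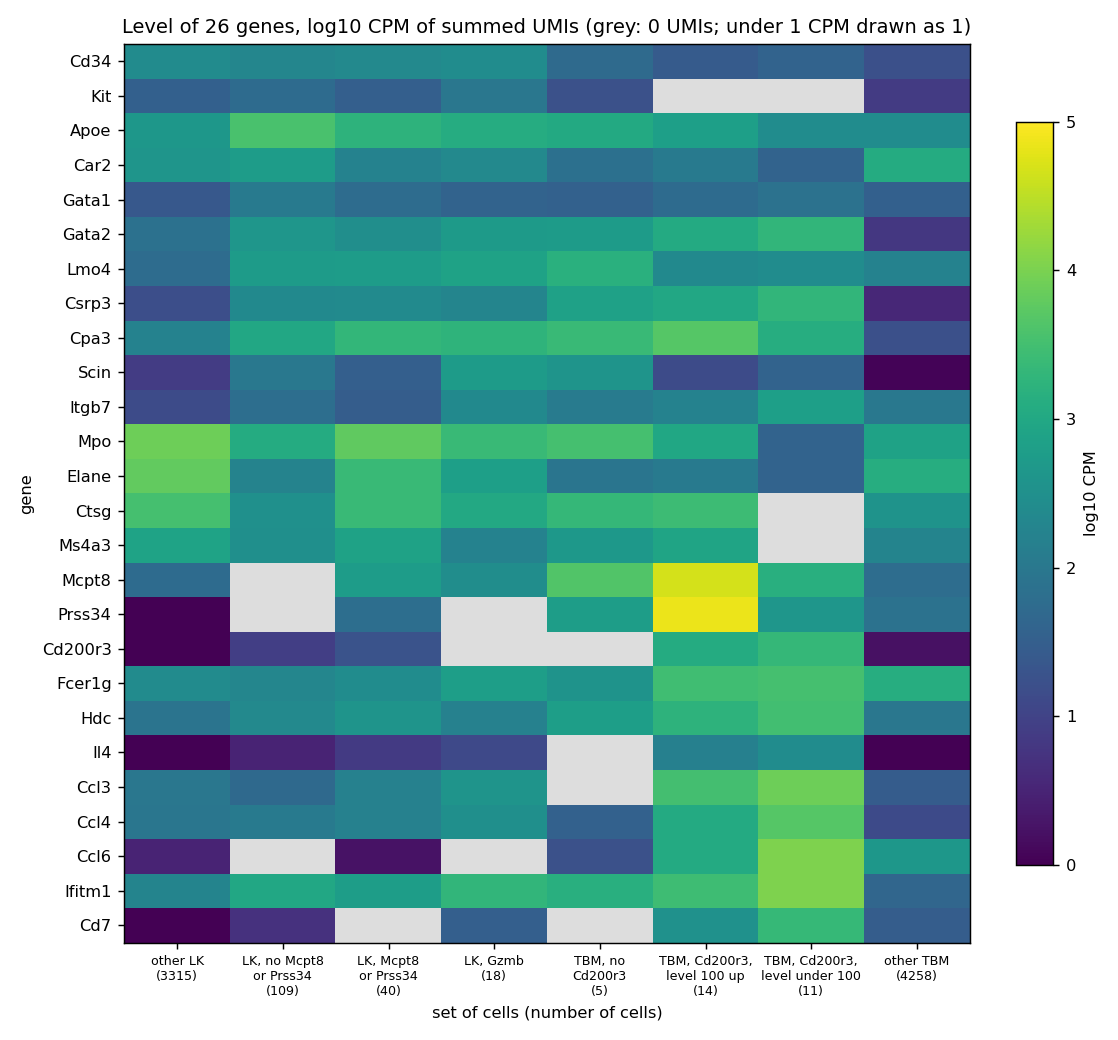
Heat map of log10 CPM for 26 genes (rows) over 8 sets of cells (columns): other LK cells (3315), LK members without (109) and with (40) Mcpt8 or Prss34, LK members with Gzmb (18, which overlap the 2 sets before), TBM members without Cd200r3 (5), with Cd200r3 at a level of at least 100 (14) and below (11), and other TBM cells (4258), with grey for 0 UMIs. Ctsg is higher in LK members with Mcpt8 or Prss34 (2393 CPM) than without (317), is at 2734 in the 14 TBM cells at 100 or more, and is grey in the 11 TBM cells below.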

How the data were processed

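Gene expression was measured by 10x Genomics 3' single-cell RNA sequencing in 1 library each of LK, LSK and TBM cells, grouped by their titles, and LK and TBM were used. The files deposited by the authors hold raw UMI counts per gene and barcode, with no normalization, for 32285 genes. Per the submitters' processing notes, Cell Ranger 4.0.0 was used with the build mm10. For the annotation release and the cell calling, settings were not given in the sources used here.

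Counts were summed over sets of cells and scaled to CPM. Ratios are log2 CPM ratios with exact conditional binomial 95% intervals, CPM have exact Poisson and shares of cells exact Clopper-Pearson intervals. With 0 counts on a side, a bound uses 3 counts over that set. Shares were computed after random thinning to 2000 UMIs. No correction for free RNA was made, and doublets called by Scrublet stayed in the main values. Size factors (median ratio) and equal weight per cell were among the alternatives. The ratio code was tested on simulated data. Python 3.11.15, numpy 2.4.6, scipy 1.17.1, pandas 2.3.3, scanpy 1.11.5, anndata 0.12.19 and matplotlib 3.10.9 were used.

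Named genes were the rule genes and markers, the 10 highest and 10 lowest log2 ratios of each comparison with at least 100 UMIs over both sets, and up to 4 members of each gene list with the largest ratio and at least 50 UMIs. Rule genes, mitochondrially encoded, ribosomal protein and sex-linked genes and receptor segments were left out of the ranking. Genes given with values beyond that rule, such as Id2 and Apoe, were chosen after their values were seen. The members and gene lists were chosen with earlier results of these data known. Splits of members by protease UMIs, Gzmb and Cd200r3 were added after seeing the data. Results for some genes are not reported here.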

Additional observations from a re-analysis of the deposited data

Results flagged for a closer look

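The LSK library, which enters no comparison above, also held cells that meet the rule: 7 of 1070 (0.654%, exact binomial 95% interval 0.263% to 1.34%). The limit used for a count of 0, 3 counts, equals 0.280% there and lies within that interval. These cells were drawn to attention as lying outside the main libraries, and their background was not tested. Mcpt8 (216 UMIs) and Prss34 (129 UMIs) came from 1 of the 7 cells, and Gzmb was seen in 3 and Gata2 in 6. A barcode shared with TBM was found for 1 of the 7, and whether that was the cell with Mcpt8 and Prss34 is not reported here.

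Named genes past 2-fold in opposite directions in the members of the 2 libraries, against the other cells of each, numbered 4. Ctsg had a log2 ratio of -1.59 in LK and 2.27 in TBM. Btg2, an antiproliferative gene, had 1.65 in LK and -1.47 in TBM. The division genes Ube2c and Hmmr had 1.26 and 1.10 in LK and -1.93 and -2.19 in TBM. The other cells of the libraries are of different kinds, and with 1 library per group the difference between LK and TBM was not tested.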

How the results depend on the processing

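No paired analysis was possible because each group has 1 library and the labels give no replicate numbers. Of 282 alternative values for counts of genes, shares and levels, 236 stayed close to their main value and 46 moved, and of 6001 alternative ratios of named genes 5670 kept their direction and side of the 2-fold bound, 157 came to pass it, 163 no longer did and 11 turned.

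With size factors, 1411 genes instead of 2218 were higher and 1482 instead of 934 lower in TBM members than in other TBM cells, and 971 instead of 1517 were higher and 946 instead of 598 lower in LK than in TBM members. With at least 50 UMIs those LK over TBM counts were 938 and 257, and with at least 1 UMI 1790 were lower. With at least 1 UMI, 1656 instead of 977 genes were higher in LK members than in other LK cells. Equal weight per cell gave 1570 genes lower in TBM members.

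For TBM members at high over low protease level, 91 genes were higher and 105 lower, and 145 and 207 without exclusion genes, 571 and 1280 with at least 1 UMI, and 36 and 26 with at least 50. Without exclusion genes, 285 instead of 184 genes were lower with Cd200r3, 172 instead of 105 were higher and 135 instead of 79 lower at high level among Cd200r3 cells, the TBM share was 1.14%, and the thinned Mcpt8 share in TBM 65.9%. For LK members with Gzmb, 367 genes were higher, and 667 with Gzmb left out of the sum, 666 with equal weight and 627 with at least 2 Gzmb UMIs. Splitting LK members by proteases after thinning gave 531 instead of 278 lower genes.

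Mcpt8 in LK moved from 219 CPM to 248 with a rule sum of at least 3, 266 with equal weight and 179.6 without the member with the most Mcpt8 UMIs, and Prss34 from 24.2 to 37.6 with equal weight and 9.19 without another member, the one with the most Prss34 UMIs. In TBM, Mcpt8 (21237 CPM) was 23258, 17613, 22895, 19218, 18691 and 24000.4, and Prss34 (29584) 32448, 24575, 31926.5, 28586, 26008 and 33898, with a rule sum of at least 3, without exclusion genes, without doublets, with equal weight, without the member with the most UMIs of the gene and without the Prg2 and S100a8 cells in that order. Unthinned shares were 25.5% for Mcpt8, 6.04% for Prss34 and 53.0% for Top2a in LK and 31.25% for Top2a in TBM, and Top2a in LK was 13.4% at 1000 UMIs.

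Ratios that turned were Prg2 with a rule sum of at least 3 (-0.45 in LK, -2.09 in TBM), Ccl5 (3.21), Cd3d (0.086) and Gzma (5.83) in TBM members, Mpo at high over low level (0.33) and Selplg with Cd200r3 (-0.15), all 5 without exclusion genes, Ly6c2 in LK over TBM (1.83) and Lyz2 at high over low level (-0.34) without the 2 cells, and Gm20186 (0.16) and Ly6c2 (-0.49) in the thinned protease split. The causes were not tested beyond what each change of cells or genes shows by construction. With 32 TBM members and 3 counts at 16.3 CPM, genes under about that level could not be compared there.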
